A study of Homo sapiens with 6 samples.

Results

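The gene of the mitochondrial 12S rRNA, MT-RNR1 (ENSG00000211459), held 1 of the 542 unique 5-methylcytosine (m5C) sites listed in 6 fractions of a sucrose gradient, and it is described across those fractions. Its rows were found by gene name, which gave 1 row in each of the 6 libraries and the same position in each. HEK293T, a human embryonic kidney cell line, was used with wild-type genotype throughout. Cells were lysed in the presence of cycloheximide, which holds cytosolic ribosomes on the RNA, and the lysate was separated by density. Poly(A)-selected RNA was then treated with bisulfite, after which unmethylated cytosine is read as T and m5C is still read as C. The groups were RNA free of ribosomes, RNA with a small subunit of the ribosome, RNA with a large subunit, RNA with 1 ribosome (monosome), RNA with 2 to 5 ribosomes (light polysome) and RNA with more than 5 (heavy polysome). Each group was 1 library and is named below by its fraction, so no difference below has a replicate check, and all intervals cover counting error only. The gene was selected on its measured m5C levels in these libraries, where it stood out by a higher level in heavy polysomes than in free RNA, so the levels are given as a description with no test. The lists hold no expression of marker genes, so the identity of the line was not checked.

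The 12S rRNA is made in the mitochondrion and is the RNA of the small subunit of the mitochondrial ribosome, which translates the few proteins encoded by mitochondrial DNA. This ribosome is distinct from the cytosolic ribosome, and the labels do not say where mitochondrial subunits or ribosomes sedimented. Near its 3′ end the 12S rRNA forms part of the decoding region of the subunit. NSUN4, a mitochondrial methyltransferase of the same family as the mRNA enzymes NSUN2 and NSUN6, is known to place m5C there, and METTL15 is known to place N4-methylcytosine on a neighbouring cytosine. Mitochondrial ribosomal RNA carries short A tails, so some of it can be retained by oligo(dT) beads.

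The site lay at position 1488 of the mitochondrial genome (GRCh37, 16569 bases, plus strand), in the single exon of a gene that runs from 648 to 1601. It is nucleotide 841 of 954, with 113 nucleotides to the 3′ end. The 29 nt from chrM:1474-1502 are shown because the site and its neighbours are read from them. The capital marks the listed cytosine.
MT-RNR1: gcgtacacaccgccCgtcaccctcctcaa
The site was not followed by UCCA. Type I is used below for every site without UCCA after it and Type II for every site with it. In mRNA the study describes its Type I sites by a triplet rich in G after the cytosine and ascribes them to NSUN2. The MT-RNR1 site had 1 G among the next 3 bases. Of 350 nuclear Type I sites with a full 21-nt window, 74 (21.1%) also had 1 G there and 223 (63.7%) had 2 or 3. The 4 bases that followed the site, gtca, followed none of the other listed sites with a full window.

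Cytosines were dense around the site. The 21-nt window centred on it held 13, against a median of 7 in 539 nuclear windows, whose range was 1 to 15, and 5 nuclear windows (0.928%) held at least as many. The gene has 253 cytosines, and the one at nucleotide 841 was the sole one listed in any library. The authors removed reads with many unconverted cytosines. Whether the deposited coverage and level were taken before or after that removal is not given in the sources used here, and the part of the filter in the C reads, T reads and levels below was not tested. The immediate neighbour at nucleotide 840 and the cytosine at nucleotide 839, known as the METTL15 target, were listed in none. A list holds called sites alone, so an unlisted cytosine was not shown to be unmethylated. In the predicted minimum free energy structure of the site with 50 nt on either side, computed as the study did for its mRNA sites, the cytosine was unpaired, with a pairing probability of 37.8%. With 100 nt on either side it was paired to G at nucleotide 915 (58.0%), so its predicted pairing depended on the window.

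Copies of this sequence exist in the nuclear genome. The 51-nt window matched 2 nuclear positions exactly. The 101-nt window matched no nuclear position as it stands, and 1 after all C were changed to T, as was done before mapping. Aligned over at least 181 of 201 nt, 27 nuclear stretches covered the site, the closest with 97.5% identity and 2 differences left after conversion. At the aligned base 23 of them had C and 4 had T. Whether reads of such copies were counted at the mitochondrial position was not tested.

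The m5C level at the site was lowest in free RNA and small subunit RNA and highest in monosomes and light polysomes. In free RNA 111999 of 198440 reads carried C, a level of 56.4% (95% Wilson interval 56.2% to 56.7%). In small subunit RNA the level was 59.7% (59.4% to 60.0%), from 107456 reads. Large subunit RNA stood well above both, with 28717 of 37555 reads and 76.5% (76.0% to 76.9%). In monosomes 9616 of 11494 reads carried C, which gave 83.7% (83.0% to 84.3%). Light polysomes had nearly the same level, 83.6% (82.9% to 84.3%), from 11026 reads. In heavy polysomes 2650 of 3407 reads carried C, and the level was 77.8% (76.4% to 79.1%). By counting error the levels fell into 4 steps: free, small subunit, large subunit with heavy polysome, and monosome with light polysome.

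**Figure D1:**
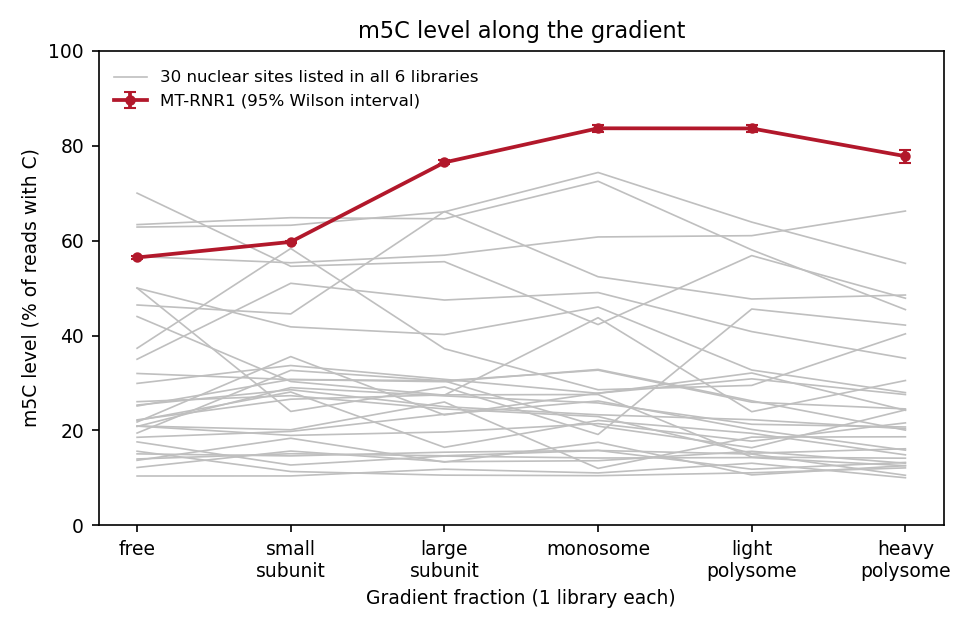
m5C level in percent of reads with C (y axis) in the 6 gradient libraries (x axis). The red line is MT-RNR1 with 95% Wilson intervals and each grey line is 1 of the 30 nuclear sites listed in all 6 libraries. MT-RNR1 lies between 56.4% and 59.7% in the first 2 libraries, among the higher nuclear sites, and between 76.5% and 83.7% in the other 4, above all 30.

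Most of the change fell on a single step. From small to large subunit RNA the level was higher by 16.7 percentage points (Newcombe 95% interval 16.2 to 17.3). From free to small subunit RNA it was higher by 3.28 points (2.92 to 3.65), and from large subunit RNA to monosomes by 7.19 (6.39 to 7.99). Between monosomes and light polysomes the difference was -0.0314 points, with an interval of -0.998 to 0.935 that held 0. Heavy polysomes minus light polysomes came to -5.85 points (-7.43 to -4.31). Large subunit RNA and heavy polysomes, which are not neighbours on the gradient, differed by 1.31 points with an interval of -0.175 to 2.75. Expressed as odds of C against T, the site had 1.30 C reads for each T read in free RNA, 3.25 in large subunit RNA, 5.12 in monosomes and 3.50 in heavy polysomes.

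The same steps were then read at the nuclear sites listed in both libraries concerned. From free to small subunit RNA 24 of 90 nuclear sites rose by more than MT-RNR1 did, and from large subunit RNA to monosomes 9 of 124 did. A rise of at least 10 points from small to large subunit RNA was found at 7 of 113 shared sites (6.19%), MT-RNR1 included, and 4 nuclear sites rose by more than it did. Each of those 4 had fewer than 100 reads in at least 1 of the 2 libraries. Among the 48 nuclear sites with at least 100 reads in both, the largest rise was 5.85 points (-3.42 to 14.8), at NVL, which encodes a nucleolar ATPase. It was followed by 5.00 points (-1.05 to 11.0) at GNAS, the alpha subunit of a stimulatory G protein. CALM3, a calmodulin gene, stood at 4.62 points, CS, the mitochondrial citrate synthase, at 3.66 and TARBP2, a partner of Dicer, at 3.61. Each of these 5 intervals held 0. The median difference of the 112 nuclear sites was -0.43 points, with 47 higher and 65 lower in large subunit RNA.

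From free RNA to heavy polysomes the level of MT-RNR1 was higher by 21.3 points (19.9 to 22.7). A rise of at least 10 points was found at 1 of the 51 sites shared by these libraries (1.96%), and that site was MT-RNR1. The 50 nuclear sites had a median difference of -2.56 points and a range of -36.1 to 9.59, with 13 higher and 37 lower in heavy polysomes. With at least 100 reads in both libraries 23 nuclear sites remained. The largest rises among them were 9.59 points (-2.19 to 21.2) at RPS6KB2, which encodes a ribosomal protein S6 kinase, and 5.79 points (-2.78 to 13.5) at B9D1. HDLBP, which encodes the RNA-binding protein vigilin, followed with 2.57 points, H3F3B, a histone H3 gene, with 1.37 and NT5DC2 with 0.908. All 5 intervals held 0. This contrast was in view when MT-RNR1 was chosen, so its place at the top is no independent result. Between other libraries its place varied. From small subunit RNA to heavy polysomes it rose by 18.1 points. There 7 of 84 nuclear sites (8.33%) rose by at least 10 points, 2 of them by more than it did. From free RNA to monosomes it rose by 27.2 points. There 4 of 73 (5.48%) rose by at least 10, 1 of them by more than it did. From free RNA to light polysomes 0 of 62 rose by more than it did.

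**Figure D2:**
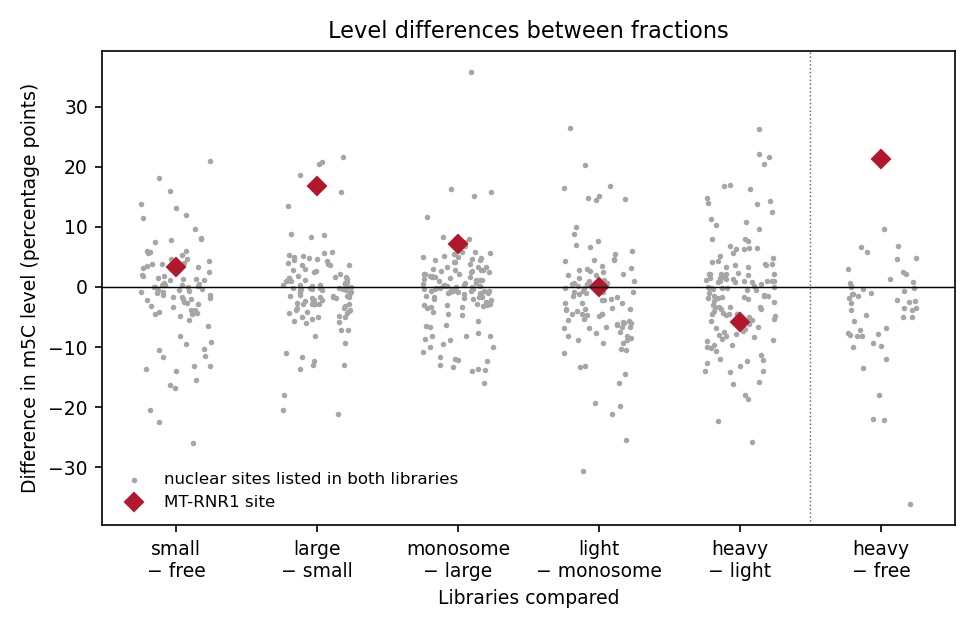
Difference in m5C level in percentage points (y axis) for the 5 neighbouring steps of the gradient and, right of the dotted line, heavy polysome minus free (x axis). Grey points are nuclear sites listed in both libraries, with coverage from 20 reads, and red diamonds are MT-RNR1, which stands at 16.7 points for large minus small subunit and at 21.3 for heavy polysome minus free, above each of the 50 nuclear sites in the latter.

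Over the last step, from light to heavy polysomes, the level of MT-RNR1 was lower, as were those of 71 of 131 nuclear sites, while 60 were higher, with a median of -0.53 points. A fall of at least 10 points was found at 17 of 132 shared sites (12.9%), and MT-RNR1 was not among them. Over all 6 libraries its level spanned 27.2 points. Spans of 3 of the 30 nuclear sites listed in all 6 libraries were wider, those of NUDT3 (30.9 points), SAMD11 (29.8) and MAPK3 (27.7). Those 3 sites had 20 to 24 reads in their thinnest library, against 3407 for MT-RNR1. Of the 30 nuclear sites, 14 were lowest in heavy polysomes and 3 in free RNA, where MT-RNR1 was lowest.

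Reads at the site decreased along the gradient by far more than reads at the median listed nuclear site. Coverage is not scaled for library size, so it was set against the nuclear sites of the same library. The site had 2682 times the reads of the median nuclear site in free RNA (74 reads over 171 sites). The ratio was 1580 in small subunit RNA, 552 in large subunit RNA, 170.3 in monosomes, 162 in light polysomes and 50.1 in heavy polysomes. It thus fell by 53.5-fold over the gradient, and by little between monosome and light polysome. A list starts at 20 reads, and the nuclear median lay between 67.5 and 74 reads in all 6 libraries, so this ratio mostly followed the reads of the site itself.

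**Figure D3:**
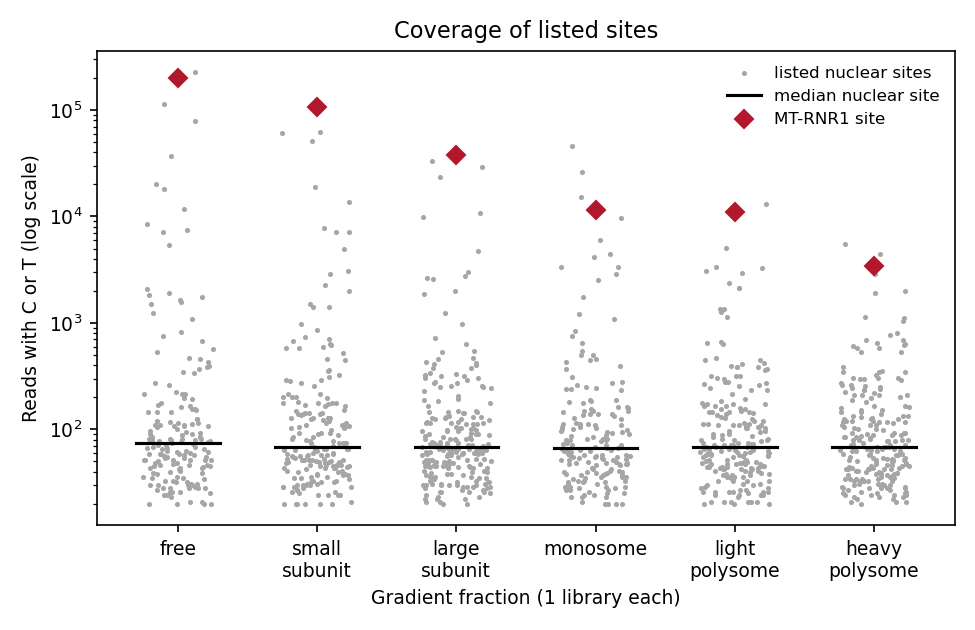
Reads with C or T at each listed site (y axis, log scale) in the 6 gradient libraries (x axis). Grey points are nuclear sites, black bars their medians of 67.5 to 74 reads, and red diamonds MT-RNR1, which decreases from 198440 to 3407 reads while the medians stay level.

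The summed reads of a fixed set of nuclear sites gave a smaller fall, and the median change at those sites a fall of 64.6-fold. Per 100 reads at the 30 nuclear sites listed in all 6 libraries, MT-RNR1 had 123 reads in free RNA, 94.7 in small subunit RNA and 62.3 in large subunit RNA. It had 24.5 in monosomes, 26.7 in light polysomes and 13.5 in heavy polysomes, a fall of 9.13-fold over the gradient. RPSA and RPS2 held 71.7% of the reads at these 30 sites in free RNA and 24.9% in heavy polysomes, so the sum followed them in free RNA. By site, the median nuclear ratio of heavy polysome to free reads was 1.11 (order-statistic 95% interval over sites 0.645 to 2.43), and 14 of the 30 sites had fewer reads in heavy polysomes. MT-RNR1 had 58.2-fold fewer reads, and no site of the 30 lost more. TMEM219 came closest, with 57.7-fold fewer. To be among the 30, a site had to keep at least 20 reads in heavy polysomes. The median of the 30 was 169 reads in free RNA, and a site at that median could not have lost 58.2-fold. The comparison thus bears only on sites with many reads in free RNA. RPS29, with 225979 reads in free RNA, was not among the 30.

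The 3 nuclear sites with the most reads among these 30 differed in how they compared. RPSA, which encodes a protein of the small cytosolic subunit, had 14.2-fold fewer reads in heavy polysomes than in free RNA, and MT-RNR1 went from 2.52 times its reads to 0.617 times. RPS2, another small subunit protein, had 48.3-fold fewer reads, and MT-RNR1 had 5.40 times its reads in free RNA and 4.47 times in heavy polysomes. SLC25A6, a mitochondrial carrier for ADP and ATP, had 4.10-fold fewer, and the ratio went from 16.8 to 1.19. Pseudogene sites with the same 21-nt windows as RPSA and RPS2 were also listed, so the reads of these genes and of their copies are uncertain. The decrease of MT-RNR1 reads, 58.2-fold, was thus nearer to that of RPS2 than to that of SLC25A6. In these libraries fewer molecules of a transcript and weaker recovery of it by poly(A) selection cannot be told apart.

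Reads with C and reads with T were followed separately, since either can move the level. Per 100 reads at the 30 nuclear sites, reads with T were 53.7 in free RNA, 38.2 in small subunit RNA and 14.7 in large subunit RNA. They were 4.00 in monosomes, 4.37 in light and 3.00 in heavy polysomes. Reads with C were 69.6, 56.6 and 47.6 in the first 3 libraries in the same order. They were then 20.5, 22.3 and 10.5. From small to large subunit RNA T reads fell by 4.90-fold and C reads by 2.23-fold as counted. From large subunit RNA to monosomes T reads fell by 4.71-fold and C reads by 2.99-fold. Over the last step the order was the other way, with C reads lower by 3.48-fold and T reads by 2.38-fold. As counted, both kinds of read decreased at each step, by 1.04-fold each between monosomes and light polysomes, and per 100 nuclear reads both were slightly higher in light polysomes than in monosomes. Where both kinds of read fall, a higher level must go with a larger fold loss of T reads, so that order repeats the level. Up to monosomes C reads did not increase, as counted or per 100 nuclear reads. The counts are not scaled for depth, and by them more C reads than T reads were lost at each of these steps.

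**Figure D4:**
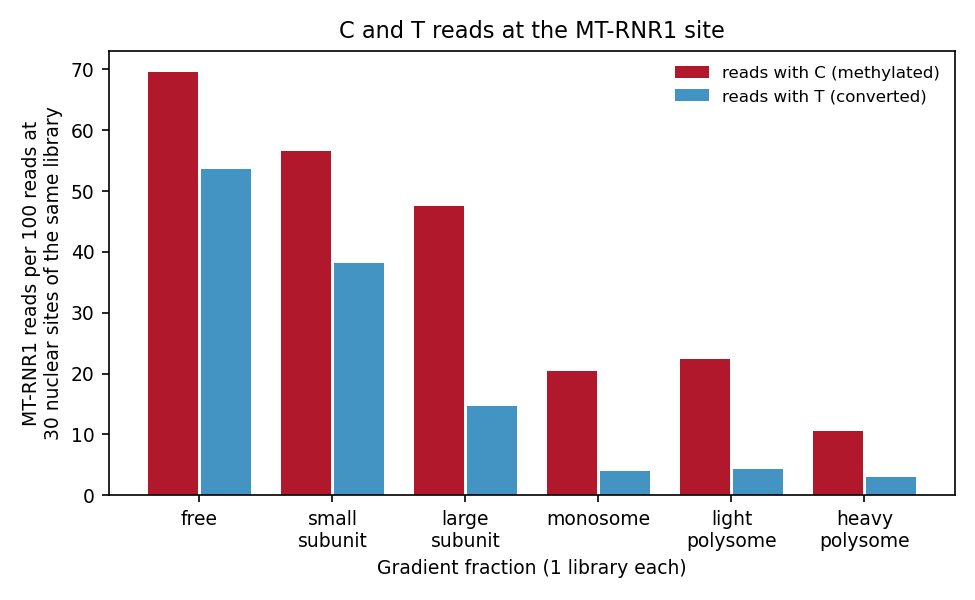
Reads at the MT-RNR1 site per 100 reads at the 30 nuclear sites listed in all 6 libraries (y axis) by gradient library (x axis). Red bars are reads with C and blue bars reads with T. T reads decrease from 53.7 to 14.7 over the first 3 libraries and C reads from 69.6 to 47.6.

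The site took a large part of all listed reads, and the level pooled over a library depended on it. It held 26.0% of reads at listed sites in free RNA, 28.5% in small subunit RNA, 19.9% in large subunit RNA, 7.33% in monosomes, 14.5% in light polysomes and 6.76% in heavy polysomes. By coverage it ranked 1 in small and large subunit RNA and from 2 to 4 in the others. Removing it lowered the pooled level by 9.14 points in free RNA, 9.93 in small subunit RNA, 10.3 in large subunit RNA, 4.50 in monosomes, 8.07 in light polysomes and 3.66 in heavy polysomes. Without it the pooled level was lowest in free RNA (21.2%) and highest in light polysomes (28.1%). With it the lowest was monosomes (26.7%). By level the site ranked 17 of 172 listed sites in free RNA and 9 of 199 in small subunit RNA, and from 2 to 4 in the other 4 libraries.

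The nuclear sites whose levels moved most alike were sought among the 30 listed in all 6 libraries. Likeness was the mean absolute difference between 2 profiles after each was centred on its own mean over the 6 libraries. The closest were RPS6KB2 (8.21 points), TARBP2 (8.92), RPSA (9.10), EIF2S3, a subunit of the initiation factor that brings the initiator tRNA (9.43), and RTN3, a reticulon of the endoplasmic reticulum (9.70), against a median of 11.0 and a largest value of 16.1. A profile that did not move at all would stand at 9.91 points from MT-RNR1, so the resemblance was slight. The windows are shown to compare them with that of MT-RNR1, in DNA letters with the site in capitals, spliced where an exon ends.
RPS6KB2: cctgggccatCtccactccca
TARBP2: atgaccacttCtccattggtg
RPSA: gtgttatatcCtccaggaata
EIF2S3: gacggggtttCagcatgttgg
RTN3: ccactatcccCagggaaggaa
RPS6KB2, TARBP2 and RPSA were followed by UCCA and were Type II sites in coding sequence, and EIF2S3 and RTN3 were Type I sites in 3′ UTRs. None shared the bases gtca that followed the MT-RNR1 site. RPS6KB2 (chromosome 11, position 67200245, plus strand) was at 56.6% (47.4% to 65.4%) in free RNA and 60.8% (56.4% to 65.0%) in monosomes. In heavy polysomes it was at 66.2% (58.4% to 73.3%), and the first and last intervals overlapped. RPSA (chromosome 3, position 39450197, plus strand) was at 62.9% in free RNA and 74.3% (73.7% to 75.0%) in monosomes, its highest level, as was the case for MT-RNR1. Of the 30 nuclear sites, 8 were highest in monosomes, RPSA included. In heavy polysomes RPSA was at 55.2%, below its free level, where MT-RNR1 was above.

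Other genes of the mitochondrion were looked up by fixed names and prefixes. The mitochondrial genome gave the MT-RNR1 site alone. MT-RNR2, the 16S rRNA of the large mitochondrial subunit, and the mitochondrial mRNAs were not listed. Of the proteins of the mitochondrial ribosome, MRPS25 (small subunit) was listed in 5 libraries and MRPL37 (large subunit) in 1. MRPS25 was at 19.6% (10.7% to 33.2%) in small subunit RNA and 40.0% (29.0% to 52.1%) in large subunit RNA. It was then at 28.4% in monosomes, 20.3% in light and 34.2% in heavy polysomes, from 46 to 117 reads, with no steady direction. Of the factors that modify or assemble mitochondrial ribosomal RNA, DHX30 was listed in 1 library at 13.7%, and NSUN4 and METTL15 were not listed.

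At nuclear genes for other mitochondrial proteins, the 7 sites listed at both ends of the gradient had a lower level in heavy polysomes, as did 37 of the 50 nuclear sites (74.0%). The Wilson intervals of free RNA and heavy polysomes overlapped at 3 of the 7. Of the 9 sites in genes with respiratory chain prefixes, 2 were listed at both ends. NDUFB7, of complex I, was at 25.3% in free RNA and 20.4% in heavy polysomes. ATP5SL, matched by its prefix, was at 50.0% (32.6% to 67.4%, 28 reads) and 28.0% (22.6% to 34.0%) in the same order. Of the 6 sites in genes for import, carriers and cristae, 5 were listed at both ends, with a median difference of -8.08 points, against -2.56 over the 50 nuclear sites. SLC25A39, a mitochondrial carrier, was at 15.6% (12.8% to 18.9%) in free RNA and 12.1% (9.08% to 16.0%) in heavy polysomes. TIMM50, of the import machinery, was at 64.7% (51.0% to 76.4%) and 60.9% (51.7% to 69.3%) in the same order, and both pairs of intervals overlapped, as did those of ATP5SL. The differences were -8.08 points at C19orf70, -11.9 at SLC25A6 and -36.1 at CHCHD10. MT-RNR1 was the one site in these mitochondrial lists with a higher level in heavy polysomes than in free RNA, among the 8 listed in both libraries. Since it was chosen with this contrast in view, that is no independent result.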

How the data were processed

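The 6 lists were deposited by the authors, 1 library per fraction. By the labels and the study's methods, the authors used cutadapt 1.13 and Trimmomatic 0.36 for trimming, HISAT2 for mapping to GRCh37 with C changed to T, and Bowtie2 2.2.9 for reads left over, against transcripts changed likewise. Per the methods, reads with many unconverted cytosines and conversion-resistant genes were then filtered out, and bases of low quality were not used. Coverage, as deposited, is a count of reads showing C or T, without scaling for depth, and whether it was counted before or after that filter is not given in the sources used here. The authors' m5C level is the fraction showing C. The deposited P-value is from the authors' binomial test and was used only to describe the lists, in which the largest was 0.000242, the lowest level 10% and the lowest coverage 20 reads. A read with several unconverted cytosines can be discarded by the authors' filter, which can lower a level where cytosines are dense. An unmethylated cytosine left unconverted is also read as C, which can raise a level, and its part in these levels was not tested.

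Reads with C were recovered as level times coverage, which was whole within 1e-06 at all 1222 listings. Fractions were grouped by sample title. Each of the 542 positions held C on its strand in the GRCh37 copy used, and genes were placed with GENCODE 44 lifted to it. Single levels have 95% Wilson intervals, differences Newcombe intervals and medians order-statistic intervals. Reads had no molecular identifiers, so these cover counting error only. No test was run, because each fraction was 1 library and MT-RNR1 was chosen for its levels. The members and lists were chosen with earlier results of these data known. Sites named besides MT-RNR1 were the 5 with the most similar profile, the 3 with the most summed reads among the nuclear sites listed in all 6 libraries, up to 5 with the largest rise in either of 2 contrasts at 100 reads or more, and mitochondrial genes listed in at least 5 libraries. Any other was named after its values were seen, the spans of NUDT3, SAMD11 and MAPK3 and the reads of TMEM219 among them. Intervals and likeness were tested on simulated data. There, reads were drawn independently at the observed levels and near copies of the MT-RNR1 profile were planted. These checks thus cover the code and leave out duplicate reads. Alternatives changed the reference sites, scale, thresholds and windows. Python 3.11.15, numpy 2.4.6, scipy 1.17.1, pandas 2.3.3, RNAfold 2.7.2, blastn 2.17.0 and matplotlib 3.10.9 were used.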

Additional observations from a re-analysis of the deposited data

How the results depend on the processing

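Of 39 alternatives 0 changed direction, a count of little weight. The 6 on the scale of odds could not change it, because odds rise with the level. Nearest sites and predicted pairing have no direction. Of those compared with the interval of the reported value, 10 stayed inside it and 17 moved outside. No paired analysis was possible because each fraction had 1 library. The rise of MT-RNR1 from free to heavy polysome (21.3 points) was 16.5 points between the mean levels of polysomes and of the first 3 libraries, and 27.2 points with the monosome in place of the heavy polysome library. On the scale of odds direction alone was compared, and the rise and each of the 5 steps had to keep it. The choice of nuclear reference set the size of the coverage ratio. Its order from free to heavy polysome held against each median but not against the summed reads of the 30 sites, per 100 of which light polysomes (26.7) were above monosomes (24.5). Against sites listed in all 6 libraries the ratios were 1174, 312, 131.5, 38.8, 28.7 and 10.5 along the gradient, and against sites with at least 50 reads 1796, 843, 370.0, 103, 97.6 and 28.9. The fall of the ratio from free to heavy polysome (53.5-fold) was 9.13-fold against the summed reads of sites listed in all 6 libraries. By the median of each such site's own ratio it was 64.6-fold, and against sites with at least 50 reads in both libraries 101-fold. A rise of at least 5 points was found at 8.00% of the 50 nuclear sites, against 0% at 10 points. Of the 5 sites most like MT-RNR1, 3 remained when sites listed in the free and at least 4 other libraries were compared. The predicted pairing was 58.0% with 100 nt on either side, with the site paired there and unpaired in the other windows. The cause of these changes was not tested.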

Other observations

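One other ribosomal RNA site was listed, singled out after its values were seen. RNA28S5, a copy of the 28S rRNA gene of the large cytosolic subunit, carried a site at position 117794 of the unplaced sequence GL000220.1 of GRCh37, plus strand, in the context tttgatccttCgatgtcggct. It was listed in large subunit RNA alone, with 22 of 26 reads carrying C and a level of 84.6% (Wilson interval 66.5% to 93.9%). In that library it had the highest level of all listed nuclear sites, and MT-RNR1, at 76.5%, ranked 4 of 233. MT-RNR1 had 37555 reads there.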
